A study of Mus musculus with 6 samples.

Results

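Tubulins are the subunits of microtubules, and the 10 genes described here are the alpha-tubulins Tuba1a, Tuba1b and Tuba1c and the beta-tubulins Tubb2a, Tubb2b, Tubb3, Tubb4a, Tubb4b, Tubb5 and Tubb6, chosen by gene symbol as 10 of the 24354 gene rows of the table. Their mRNA was measured by TRAP-seq, in which ribosomes carrying EGFP fused to the ribosomal protein L10a are pulled down and the RNA on them is sequenced. All mice were of the genotype FoxJ1:cre x bacTRAP (EGFP:L10a), so that the tag marked cells in which the Foxj1 promoter had driven Cre, and all tissue was choroid plexus (ChP), the epithelium that secretes cerebrospinal fluid. The ages compared were adult (P60) and embryonic day 16.5 (E16.5), with 3 samples each. By the study's methods a sample was pooled from several adult mice or several litters, whereas the series description names 3 mice per age, so that p-values measure the spread between these samples only.

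A microtubule is built from dimers of 1 alpha and 1 beta chain, and mammals hold several genes for each. The isotypes share a conserved core and differ mostly in a short acidic carboxy tail, where enzymes add and remove tyrosine, glutamate and glycine. ChP epithelial cells carry bundles of cilia on their apical face, and the doublet microtubules of a cilium are made of the same subunits.

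The libraries differed in depth by age. Low FPKM values come in steps of 1 read, and by the size of these steps 1 read in 1 kb of transcript was worth 0.114 to 0.324 FPKM (a read density per kilobase, corrected for library size) in adult samples and 0.0635 to 0.0803 in E16.5 samples, so that the E16.5 libraries were 4.03 to 5.10 times as deep as adult replicate 3, the shallowest. Adult replicate 3 listed 36.4% of the tested genes at 0. An exact 0 can be a failed estimate, since Ttr, the main secreted protein of this epithelium, was at 20922 to 31302 FPKM in adult samples and listed at 0 in every E16.5 sample. Foxj1, the gene whose promoter drives the Cre, was detected in all 6 samples, at 37.9 to 62.4 FPKM in adult and 154 to 208 in E16.5 samples. Enpp2 and Kl, also ChP epithelium markers, were detected in all 6, and 8 of the 12 markers of that list were called higher in adult ChP, beside 2.12% of all genes tested, and 1, Otx2, lower, beside 8.83%. The 8 include Ttr, whose call rests on these E16.5 values of 0. A single gene, Mir6236, held 32.7% to 51.7% of the summed FPKM in adult and 13.3% to 15.0% in E16.5 samples.

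How far the tubulins can be told apart by reads of 50 bases bears on the value of each gene. The ends of the coding sequences of 6 beta-tubulins are shown because the tails differ there. Each line gives the last 60 coding bases with the stop codon, 5′ to 3′ on the gene's own strand, in GRCm38 (mm10) with the GENCODE annotation, all within 1 coding exon. Capitals mark bases that differ from the first line, Tubb4b, at the same distance from the stop codon, without gaps. The sequences lie at chr2:25222308-25222367 (Tubb4b, minus strand), chr17:57080690-57080749 (Tubb4a, minus), chr17:35834982-35835041 (Tubb5, minus), chr13:34074468-34074527 (Tubb2a, minus), chr13:34127471-34127530 (Tubb2b, minus) and chr8:123421623-123421682 (Tubb3, plus).
Tubb4b: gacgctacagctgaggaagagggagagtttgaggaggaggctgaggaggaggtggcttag
Tubb4a: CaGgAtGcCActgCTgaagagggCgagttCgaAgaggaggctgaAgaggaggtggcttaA
Tubb5: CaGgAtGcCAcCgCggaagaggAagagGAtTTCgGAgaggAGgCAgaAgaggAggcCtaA
Tubb2a: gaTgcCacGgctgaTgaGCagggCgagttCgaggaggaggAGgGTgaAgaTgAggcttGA
Tubb2b: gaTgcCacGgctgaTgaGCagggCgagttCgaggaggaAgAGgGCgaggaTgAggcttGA
Tubb3: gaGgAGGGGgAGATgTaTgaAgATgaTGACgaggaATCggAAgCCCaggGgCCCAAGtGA
Counted in this way, differences from Tubb4b numbered 13 in Tubb4a, 17 each in Tubb2a and Tubb2b, 24 in Tubb5 and 36 in Tubb3. The ends of Tubb2a and Tubb2b were nearly alike. Without gaps, a difference in length, as between Tubb4a (1335 coding bases) and Tubb4b (1338), adds to the count. Over the whole coding sequence, Tuba1a and Tuba1b were identical at 98.3% of bases, Tubb2a and Tubb2b at 96.5%, and Tubb4a and Tubb4b at 83.2%.

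Of all 50-base stretches of the coding sequence, 93.9% of Tuba1a, 95.6% of Tuba1b and 90.6% of Tuba1c also occurred in another gene or pseudogene. For Tubb2a and Tubb2b the shares were 60.0% and 65.1%, mostly with each other, and for Tubb4b 61.1%, mostly with its processed pseudogene Tubb4b-ps1. Tubb3 and Tubb6 shared none, and Tubb4a and Tubb5 under 1 percent. The sources used here do not say how reads that fit several genes were assigned, so the split among Tuba1a, Tuba1b and Tuba1c, and between Tubb2a and Tubb2b, is uncertain, while Tubb3, Tubb4a, Tubb5 and Tubb6 were nearly free of this limit.

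**Figure D1:**
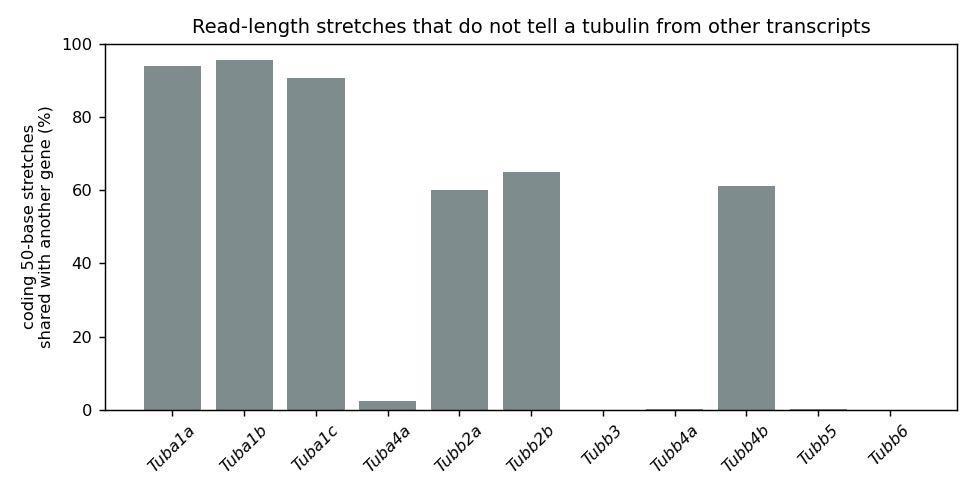
Share of the 50-base stretches of each coding sequence that also occur in another annotated gene (vertical axis, percent) for the 10 tubulins and Tuba4a, an alpha-tubulin outside the 10. The 3 alpha members stand at 90.6% to 95.6%, Tubb2a, Tubb2b and Tubb4b at 60.0% to 65.1%, and the other bars are at 2.39% or lower.

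Tubulin mRNA on tagged ribosomes was lower in adult than in E16.5 ChP. Of the 10 genes, 9 passed the filter of a mean FPKM above 1 and were tested, and 4 of the 9 (Tuba1a, Tubb4a, Tubb2a and Tubb4b) were called lower in adult ChP, beside 8.83% of all 11601 genes tested, and 0 were called higher, beside 2.12%. At an unadjusted p under 0.05, limma gave 6 lower and 0 higher, beside 3006 lower and 620 higher of all 11601 genes tested. In 8 of the 9 the adult samples all lay below the E16.5 samples, beside 31.0% of all genes tested. The median change over all genes tested was -0.86 on the log2(FPKM + 1) scale as deposited, and it depended on the scaling, at 0.013 when samples were set to the same quantiles and -1.48 when each was rescaled to the same sum. The changes of the 9 ranged from -4.39 to 0.33 with a median of -2.37, and 8 of the 9 were below the median of all genes, also under both of those scalings. With a pseudocount of 0.01, 6 of the 9 were below it. Relative to that median, Tubb4b then stood at 0.15 and Tubb5 at 0.12. In such bulk samples fewer cells of a type and less RNA per cell cannot be told apart. The number of tubulins called lower was 0 without E16.5 replicate 1, 0 without E16.5 replicate 2 and 1 without E16.5 replicate 3, where the count over all genes also fell from 1024 to 25, 16 and 65, and it was 1 without both adult replicate 3 and E16.5 replicate 1.

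**Figure D2:**
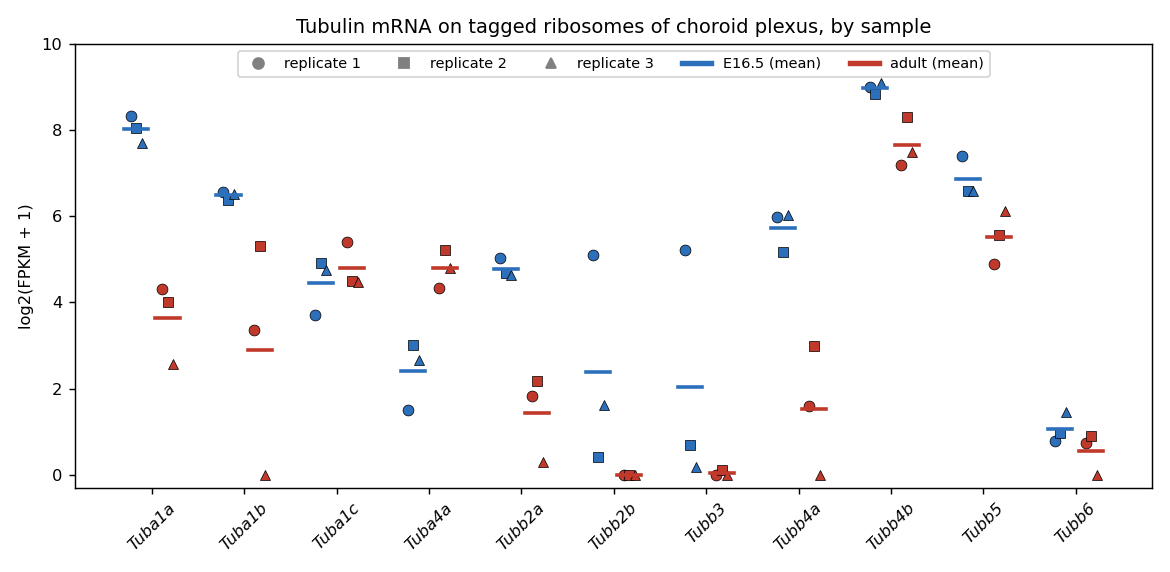
Level of each tubulin in each sample as log2(FPKM + 1) (vertical axis), E16.5 in blue and adult in red, with replicates by symbol and a bar at the mean of 3 samples. Tuba1a, Tuba1b, Tubb2a, Tubb4a, Tubb4b and Tubb5 separate by age, Tuba1c and Tubb6 overlap, Tuba4a is higher in adult samples, and Tubb2b and Tubb3 stand out in E16.5 replicate 1 alone.

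Tuba1a, the alpha-tubulin known as the main one of developing neurons, had the largest log2 change of the 10 with a pseudocount of 1, while with a pseudocount of 0.1 Tubb4a (-5.51), Tubb2b (-4.97) and Tuba1b (-4.74) passed it (-4.51). It measured 319, 262 and 207 FPKM in the E16.5 samples and 18.9, 15.1 and 4.94 FPKM in the adult samples. The ages did not overlap, and the highest adult sample was far below the lowest E16.5 sample. The mean was 263 ± 55.9 FPKM at E16.5 and 12.99 ± 7.23 in adult ChP (SD, n = 3 each), a ratio of 20.2, and the log2 change was -4.39 ± 0.49 (SE) with a limma adjusted p of 0.00464. Without E16.5 replicate 1 the limma adjusted p was 0.0503 and without E16.5 replicate 2 it was 0.0559.

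Tuba1b, a widely expressed alpha-tubulin, measured 93.1, 82.4 and 90.5 FPKM at E16.5 and 9.20, 38.8 and 0 FPKM in adult samples. All adult values were below all E16.5 values, but they were scattered, with adult replicate 3 listed at 0. The log2 change of -3.60 ± 1.18 (SE) did not pass the test (limma adjusted p = 0.0876). It passed without adult replicate 2 (0.0276) and without adult replicate 3 (0.0437), limma adjusted p in both.

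Tuba1c, the third of this alpha-tubulin cluster on chromosome 15, measured 12.1, 29.1 and 26.1 FPKM at E16.5 and 41.4, 21.6 and 21.3 FPKM in adult samples. The ages overlapped, and the highest and the lowest value came from replicates numbered 1. Its log2 change of 0.33 ± 0.49 (SE) was not called (limma adjusted p = 0.666) and its sign turned without E16.5 replicate 1 (-0.040) and after rescaling to the same sum (-0.46).

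Tuba4a, an alpha-tubulin outside the 10 that is known to be encoded without the final tyrosine, was the only tubulin called higher. It measured 1.85, 7.10 and 5.36 FPKM at E16.5 and 19.3, 36.3 and 27.0 FPKM in adult samples. Every adult sample was above every E16.5 sample. The mean rose 5.77-fold, from 4.77 ± 2.67 to 27.5 ± 8.49 FPKM (SD, n = 3 each), and the log2 change was 2.39 ± 0.59 (SE) with a limma adjusted p of 0.0432. This call was lost without any 1 sample other than adult replicate 3, with limma adjusted p from 0.0671 to 0.120, while the change stayed positive in all 18 alternatives. Of the 50-base stretches in its 3′ UTR, 98.9% overlap the kinase gene Stk16 on the opposite strand, against 2.39% shared in its coding sequence, and the sources used here do not say whether strand was used in counting. Stk16 itself measured 8.17, 7.60 and 0 FPKM in adult and 19.1, 35.4 and 17.8 FPKM in E16.5 samples, the opposite order of the ages to Tuba4a.

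The makeup of the alpha pool differed by age. Within the summed FPKM of the 3 alpha members, Tuba1a held 75.2%, 70.2% and 64.0% in E16.5 samples and 27.2%, 20.0% and 18.8% in adult samples, without overlap. Tuba1c held 2.86%, 7.80% and 8.05% at E16.5 and 59.6%, 28.6% and 81.2% in adult samples, also without overlap. Tuba1b held 22.0% to 28.0% at E16.5, inside its adult range of 0 to 51.4%. With all alpha-tubulins of the table in the sum, Tuba4a held 0.434%, 1.87% and 1.63% at E16.5 and 21.7%, 32.4% and 50.7% in adult samples, and Tuba1a 62.9% to 74.8% at E16.5 and 9.27% to 21.3% in adult samples. A share within a sample does not move with the scaling of that sample, but the shares of Tuba1a, Tuba1b and Tuba1c rest on reads that mostly fit several of them.

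**Figure D3:**
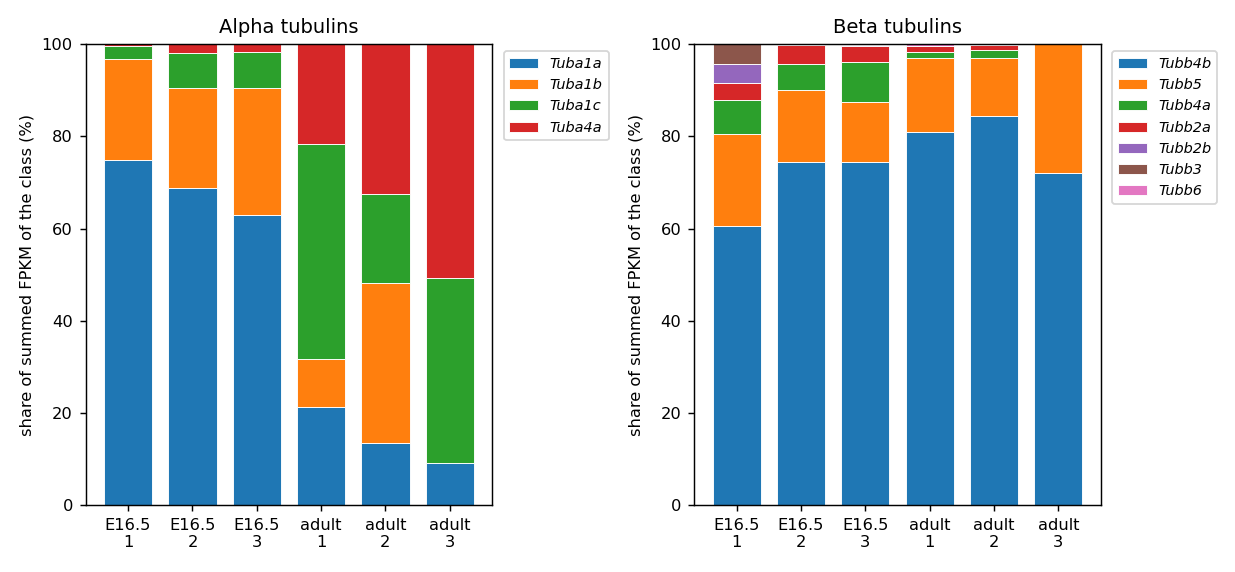
Share of each isotype in the summed FPKM (vertical axis, percent) of all alpha-tubulins (left) and all beta-tubulins (right) in each of the 6 samples, with Tuba3a, Tuba3b, Tuba8, Tubal3 and Tubb1, at or near 0, not drawn. Tuba1a fills 62.9% to 74.8% of the alpha bars at E16.5 and 9.27% to 21.3% in adult samples, while Tubb4b fills 60.5% to 84.4% of every beta bar.

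Tubb4b, the beta-tubulin best known from the axoneme of motile cilia, was the most abundant of the 10 at both ages. It measured 509, 459 and 546 FPKM at E16.5 and 144, 314 and 179 FPKM in adult samples. The ages did not overlap, and adult replicate 2 came nearest to the E16.5 samples. The mean was 505 ± 43.6 FPKM at E16.5 and 212 ± 89.4 in adult ChP (SD, n = 3 each), and the log2 change of -1.32 ± 0.32 (SE) had a limma adjusted p of 0.0422. Relative to the median change of all genes it stood at -0.46, and at 0.15 with a pseudocount of 0.01. The call was lost when any 1 of adult replicate 1, adult replicate 3 or the E16.5 replicates was left out (limma adjusted p from 0.0603 to 0.133). Among all genes of a library, Tubb4b ranked 93, 103 and 63 by FPKM at E16.5 and 223, 113 and 236 in adult samples.

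The promoter of Tubb4b is shown because it was the richest of the tubulins in CCAAT boxes, the motif bound by the factor NF-Y. The 250 bases before its RefSeq start lie at chr2:25224703-25224952 (GRCm38.p6, minus strand), printed 5′ to 3′ with the motif CCAAT in capitals.
Tubb4b promoter: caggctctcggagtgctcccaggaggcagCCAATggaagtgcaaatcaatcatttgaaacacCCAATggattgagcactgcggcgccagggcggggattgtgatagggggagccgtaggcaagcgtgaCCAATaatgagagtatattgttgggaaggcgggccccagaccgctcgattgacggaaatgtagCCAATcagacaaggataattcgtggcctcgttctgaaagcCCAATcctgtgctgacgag
It held 5 CCAAT motifs, at 221, 188, 122, 59 and 19 bases before the start, all on the gene's strand. At least 1 CCAAT on either strand was found in 33.8% of 32544 promoters of the same length, and 5 or more in 70 of them (0.215%). RefSeq promoters matched 8 of the 10 tubulins, Tubb2b and Tubb6 being without an entry. Tubb5 had 2 CCAAT motifs, Tuba1a, Tuba1c and Tubb3 had 1 each, and Tuba1b, Tubb2a and Tubb4a had 0. GTTGCC, a half-site of the ciliary RFX factors, was searched on both strands and found in 10.3% of promoters and among the 8 only in Tuba1c, and the longer X-box, which contains that half-site, was found in 0.246% and in none of the 8.

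Tubb5, the beta-tubulin common to most dividing cells, was the next most abundant beta isotype. It measured 169, 95.3 and 95.7 FPKM at E16.5 and 28.6, 46.6 and 69.1 FPKM in adult samples. The ages did not overlap, and E16.5 replicate 1 was the highest. The log2 change of -1.33 ± 0.42 (SE), close to that of Tubb4b, did not pass the test (limma adjusted p = 0.0783). It passed without adult replicate 3 (limma adjusted p = 0.0330).

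Tubb4a, a beta-tubulin known mainly from neurons and oligodendrocytes, measured 62.2, 35.2 and 63.9 FPKM at E16.5 and 2.02, 6.96 and 0 FPKM in adult samples. All adult samples were far below all E16.5 samples. The mean was 53.7 ± 16.1 FPKM at E16.5 and 2.99 ± 3.58 in adult ChP (SD, n = 3 each), a ratio of 18.0, and the log2 change of -4.20 ± 0.79 (SE) had a limma adjusted p of 0.0224. The call was lost without any 1 E16.5 sample (limma adjusted p from 0.0856 to 0.102) and with smaller pseudocounts (0.0718 and 0.153).

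Tubb2a, a beta-tubulin abundant in brain, measured 31.7, 24.6 and 24.0 FPKM at E16.5 and 2.55, 3.54 and 0.233 FPKM in adult samples. The E16.5 samples were close together and the adult samples all lower, that of adult replicate 3 being about what 1 read is worth there (0.230 FPKM). The mean ratio was 12.7, from 26.7 ± 4.26 FPKM at E16.5 to 2.11 ± 1.70 in adult ChP (SD, n = 3 each), and the log2 change of -3.35 ± 0.67 (SE) had a limma adjusted p of 0.0253. The call was lost without any 1 E16.5 sample (limma adjusted p from 0.0945 to 0.114) and with smaller pseudocounts (0.0559 and 0.0758). Summed with its near copy Tubb2b, it came to 65.0, 24.9 and 26.0 FPKM at E16.5 and 2.55, 3.54 and 0.233 in adult samples.

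**Figure D4:**
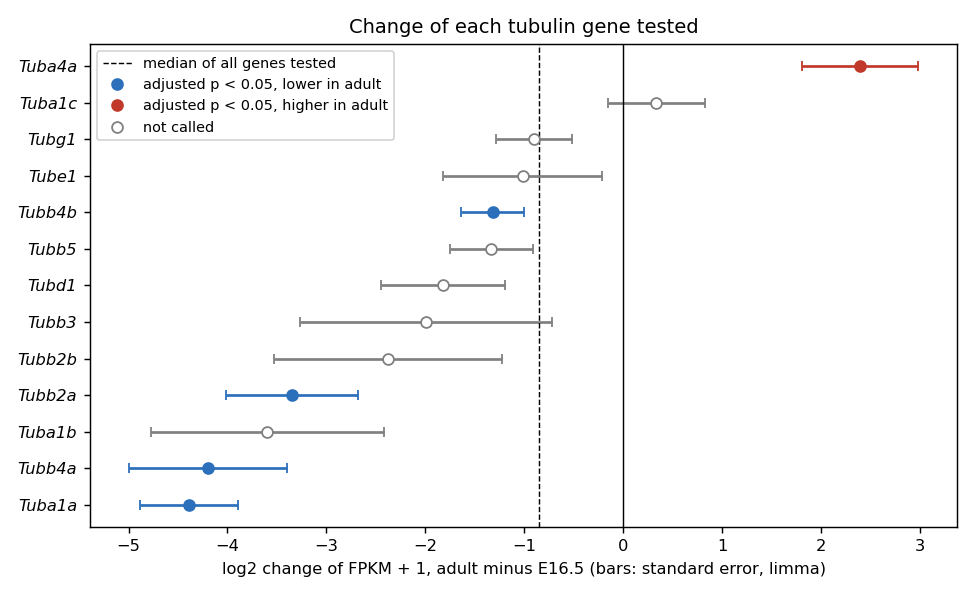
Log2 change of FPKM + 1, adult minus E16.5 (horizontal axis), for the 13 tubulin genes tested, with standard errors from limma and a dashed line at the median of all genes tested (-0.86). Tuba1a (-4.39) and Tubb4a (-4.20) lie furthest to the left, Tubb4b (-1.32) just left of the dashed line, and Tuba4a (2.39) alone on the far right.

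Tubb2b and Tubb3 were high in a single sample. Tubb2b, a beta-tubulin known for its need in neuronal migration, measured 33.3, 0.331 and 2.05 FPKM at E16.5 and was listed at 0 in all adult samples. Tubb3, whose protein is the classical antibody marker of neurons, measured 36.2, 0.623 and 0.134 FPKM at E16.5 and 0, 0.0742 and 0 in adult samples. Both were high in E16.5 replicate 1 only, and they count among the 8 without overlap although the other E16.5 samples were at 2.05 FPKM or lower. For Tubb2b, 3 reads would be worth 0.386, 0.173 and 0.491 FPKM in adult replicates 1, 2 and 3. Its 2.05 FPKM in E16.5 replicate 3 lay above these. Neither was called (limma adjusted p = 0.201 for Tubb2b and 0.315 for Tubb3), and no fold change is given against adult values at 0. In adult replicates 1 and 3, 3 reads of Tubb3 would be worth 0.459 and 0.583 FPKM, so that a difference from E16.5 replicate 3 was not detectable at this depth.

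Most of the neuron markers listed were highest in the same sample. Of 15 neuron markers, 11 were highest in E16.5 replicate 1. The summed FPKM of the 15 was 191 there, 41.9 and 44.7 in the other E16.5 samples and 2.36 to 19.7 in adult samples. The value of 19.7 was that of adult replicate 3, where Tubb2b and Tubb3 were listed at 0. Stmn2, a growth cone protein, measured 25.3 FPKM in E16.5 replicate 1 and was listed at 0 in the other 5 samples. Ina, an intermediate filament protein of axons, was at 13.6 FPKM there and at 0.0421 and 0.0487 FPKM in the other E16.5 samples. Nefm, another neuronal intermediate filament gene, differed from these, with 54.2, 32.8 and 38.2 FPKM at E16.5 and 0, 1.12 and 0 in adult samples, and was the only marker of the list called lower (limma adjusted p = 0.00601). Tuba1a, Tuba1b, Tubb2a and Tubb5 were also highest in E16.5 replicate 1, whereas Tubb4a and Tubb4b were highest in E16.5 replicate 3. How many of all genes were highest in E16.5 replicate 1 was not counted. The part of neuronal RNA in the tubulin values was not tested.

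**Figure D5:**
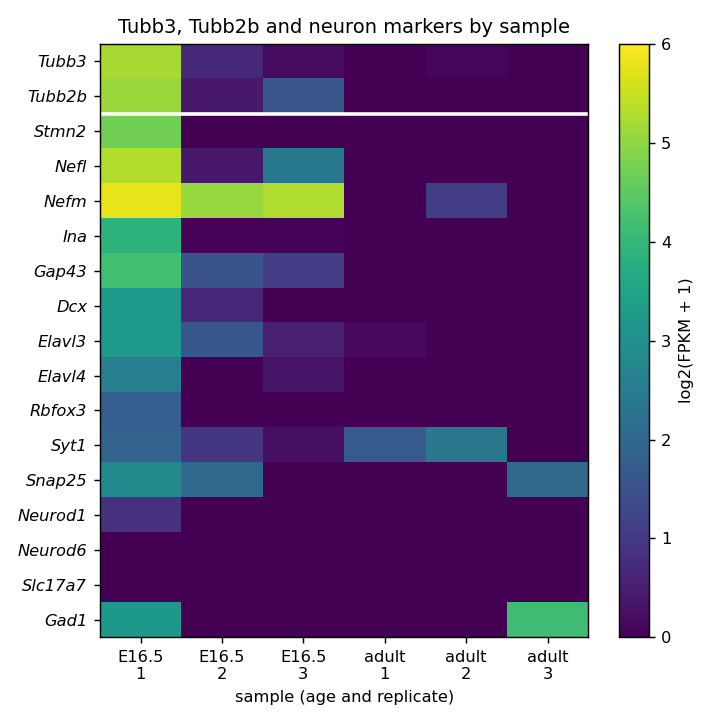
Level as log2(FPKM + 1) (colour scale) of Tubb3 and Tubb2b, above the white line, and of the 15 neuron markers, below it, in the 6 samples. Tubb3, Tubb2b, Stmn2 and Ina are brightest in E16.5 replicate 1, while Nefm is bright in all 3 E16.5 samples.

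Tubb6, a beta-tubulin of low level in most tissues, measured 0.724, 0.943 and 1.76 FPKM at E16.5 and 0.662, 0.878 and 0 FPKM in adult samples. Its mean over all samples was under 1 FPKM, so it was not tested, and the ages overlapped.

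Summed over the 10 genes, tubulin mRNA came to 1266, 990 and 1057 FPKM at E16.5 and 248, 447 and 275 FPKM in adult samples, a mean ratio of 3.42. As a share of the summed FPKM without Mir6236 this was 0.250%, 0.190% and 0.271% at E16.5 and 0.0477%, 0.0806% and 0.0549% in adult samples, again without overlap. The 3 alpha genes had a mean ratio of 6.54 and the 7 beta genes one of 2.74. The ratio of summed alpha to summed beta FPKM was 0.504, 0.606 and 0.441 at E16.5 and 0.390, 0.203 and 0.106 in adult samples. With Tuba4a in the alpha sum the ages overlapped, at 0.448 to 0.618 for E16.5 and 0.214 to 0.499 for adult samples.

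The beta pool kept its leading gene. Tubb4b held 60.5%, 74.5% and 74.4% of summed beta FPKM at E16.5 and 81.0%, 84.4% and 72.1% in adult samples, and Tubb5 held 20.0%, 15.5% and 13.05% against 16.1%, 12.5% and 27.8%, both overlapping. Among the minor isotypes, Tubb4a went from 7.39%, 5.71% and 8.71% at E16.5 to 1.13%, 1.87% and 0 in adult samples, and Tubb2a from 3.27% to 3.99% at E16.5 to between 0.0937% and 1.43%, both without overlap.

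By mean FPKM the order at E16.5 was Tubb4b, Tuba1a, Tubb5, Tuba1b, Tubb4a, Tubb2a, Tuba1c, Tubb3, Tubb2b and Tubb6. Down to Tubb2a each neighbour in this order was clear of the next over the 3 samples, and from Tubb2a on neighbours overlapped. In adult ChP the order was Tubb4b, Tubb5, Tuba1c, Tuba1b, Tuba1a, Tubb4a, Tubb2a, Tubb6, Tubb3 and Tubb2b, and only Tubb4b was clear of its neighbour. Tuba1a thus stood at place 2 at E16.5 and place 5 in adult ChP.

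Ratios of paired isotypes within a sample were compared between the ages for 5 pairs, as log2 ratios of FPKM + 1, with exact two-sided permutation tests that cannot give a p below 0.1 with 3 samples against 3. Only Tubb4a to Tubb4b separated the ages, at -3.01, -3.67 and -3.07 for E16.5 and -5.59, -5.31 and -7.49 for adult samples. The difference in log2 ratio was -2.88, with an exact permutation p of 0.1 and 0.5 after adjustment over the 5 pairs, and lay between -4.18 and -2.20 in the alternatives tried. Tubb4b to Tubb5 differed by 0.01, with means of 2.13 ± 0.70 in adult and 2.11 ± 0.47 in E16.5 samples (SD, n = 3 each) and an exact permutation p of 1. The other 3 pairs overlapped between the ages, with differences of -0.79 for Tuba1a to Tuba1b, -0.97 for Tubb2a to Tubb2b and -0.67 for Tubb3 to Tubb5 and exact permutation p from 0.5 to 0.9.

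Of the 9 other tubulins beside Tuba4a, Tubg1, the gamma-tubulin that nucleates microtubules, was the most abundant, with 44.4, 41.5 and 46.1 FPKM at E16.5 and 22.3, 16.3 and 33.4 FPKM in adult samples. Its log2 change of -0.90, near the median of all genes, was not called (limma adjusted p = 0.154). The delta-tubulin gene Tubd1 and the epsilon-tubulin gene Tube1, whose products belong to centrioles and basal bodies, were listed at 0 in all adult samples. At E16.5, Tubd1 measured 0.860, 2.76 and 5.32 FPKM. Tube1 measured 5.99, 0.185 and 0 FPKM there, high in E16.5 replicate 1 only and with overlap between the ages. Neither gene was called. Tuba3a, Tubb1 and Tubg2 were listed at 0 in all 6 samples, and Tuba3b, Tuba8 and Tubal3 did not exceed 0.259 FPKM.

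Before they form a dimer, new tubulin chains pass from prefoldin to the chaperonin CCT and on to the folding cofactors. Of 6 prefoldin genes, 2 were called lower in adult ChP, Pfdn5 with a log2 change of -1.51 and Pfdn6 with -4.14, and 0 higher. Of 8 CCT subunits, Tcp1 (-1.63) and Cct7 (-1.33) were called lower and 0 higher, while Cct5, the most abundant, was not called (-0.34). Of 7 folding cofactor genes none was called in either direction by limma, with 4 lower and 0 higher at an unadjusted p under 0.05. The most abundant, Tbca, which takes up beta-tubulin, measured 141, 162 and 149 FPKM at E16.5 and 40.0, 23.7 and 0 FPKM in adult samples, without overlap (limma adjusted p = 0.0838). None of the 3 genes of tubulin mRNA autoregulation, in which Ttc5 recognises new tubulin chains, was called by limma, with 1 lower and 0 higher at an unadjusted p under 0.05. The counts of called genes stand beside 8.83% called lower and 2.12% called higher among all genes tested. The counts at an unadjusted p under 0.05 stand beside 3006 lower and 620 higher of all 11601 genes tested.

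Genes for enzymes that modify the tubulin tails were mostly not called, beside 8.83% called lower and 2.12% called higher among all genes tested. The list for tyrosination and detyrosination also held the cytosolic carboxypeptidase family, and 7 of its genes were tested. Agbl3, of that family, was called lower (15.9, 7.88 and 19.8 FPKM at E16.5 and 0, 1.002 and 0.290 in adult samples) and 0 higher. Ttl and Ccdc23, tested outside that family, were not called. Among 12 for glutamylation and glycylation, Tpgs1, a subunit of the polyglutamylase complex, was called lower (5.68, 24.9 and 30.0 FPKM at E16.5 and 0, 0.879 and 0 in adult samples) and 0 higher. Of 3 acetylation genes none was called by limma, with 2 lower and 0 higher at an unadjusted p under 0.05. The log2 change was -3.14 for Atat1, -1.82 for the deacetylase gene Hdac6 and -0.75 for Sirt2. Their limma adjusted p was 0.0517, 0.0822 and 0.382 in that order. Of 5 severing enzyme genes none was called, with 1 lower and 0 higher at an unadjusted p under 0.05. At that unadjusted threshold, 3006 of all 11601 genes tested were lower and 620 higher.

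Genes that start or bind microtubules were mostly not called. Of 9 genes of the gamma-tubulin ring complex, Mzt2 and Nedd1 were called lower, beside 8.83% of all genes tested, and 0 higher, Mzt2 being listed at 0 in every adult sample and at 8.30, 18.7 and 11.1 FPKM at E16.5. Of 24 microtubule-associated protein genes, 1 was called higher, beside 2.12% of all genes, and 2 lower, beside 8.83%, shares near those of all genes. Camsap2, which caps minus ends, was the one called higher, with 71.7, 77.8 and 114 FPKM in adult and 15.9, 27.9 and 32.3 FPKM in E16.5 samples (log2 change 1.78, limma adjusted p = 0.0321). Dclk1 (-2.14) and Map2 (-3.35), both known from neurons, were called lower, and the most abundant, Mapre3, a plus-end binding protein, was not called (0.23). The 4 stathmin genes, whose products bind free tubulin dimers, were all listed at 0 in every adult sample. Stmn1 measured 45.7, 27.8 and 2.06 FPKM at E16.5 (limma adjusted p = 0.0513), and Stmn4 was at 16.1 FPKM in E16.5 replicate 1 and at most 0.0659 FPKM elsewhere.

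Part of the motile axoneme genes were lower in adult ChP along with Tubb4b. Of 18 tested, 8 were called lower, beside 8.83% of all genes tested, 10 were not called and 0 were called higher. In 14 the adult samples all lay below the E16.5 samples, beside 31.0% of all genes. The median log2 change of the 18 was -1.79, beside -0.86 for all genes. Cfap126, a protein of the ciliary base and axoneme, measured 1199, 1164 and 1007 FPKM at E16.5 and 106, 64.3 and 84.9 FPKM in adult samples (log2 change -3.73, limma adjusted p = 0.000975). Cfap43 (-3.02) and Ccdc40 (-4.84), also of the axoneme, were called lower. Foxj1, the regulator of motile cilia genes, was called lower as well, with a log2 change of -1.93 (limma adjusted p = 0.0127). The summed FPKM of the list was 2509 to 2802 at E16.5 and 557 to 652 in adult samples. Its part in the level of Tubb4b was not tested.

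Of 8 cell cycle markers tested, Top2a and Rrm2 were called lower in adult ChP, beside 8.83% of all genes, both listed at 0 in every adult sample, and the other 6 were not called. Ccna2, a cyclin gene, had the higher mean in adult samples, at 7.36 ± 9.49 FPKM against 1.54 ± 1.90 (SD, n = 3 each), with overlap. The summed FPKM of the 12 markers was 59.1 to 114 at E16.5 and 26.5 to 49.8 in adult samples. Their part in the level of Tubb5 was not tested.

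Across the 6 samples, the genes whose log2(FPKM + 1) ran most like the summed tubulins were St3gal6 (Pearson r = 0.998), Efcab10 (0.998) and Ppp1r36 (0.997), each listed at 0 in adult replicates 1 and 3. Those most like Tubb4b were Psma2 (0.998), Trim37 (0.998) and Lamtor5 (0.998). All were lower in every adult sample than in every E16.5 sample, as were 31.0% of the genes tested, and the points share the depth of their library.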

How the data were processed

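TRAP RNA of ChP was sequenced from 3 adult and 3 E16.5 samples, grouped by the age in their labels. Per the labels, libraries were made with a SMARTer Pico kit with ribodepletion. By the study's methods, the authors aligned 50-base single-end reads to mm10 with STAR 2.4.0 and computed the deposited FPKM with Cuffquant of Cufflinks. For this step the annotation, the treatment of reads that fit several genes and the use of strand are not given in the sources used here.

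The deposited FPKM entered without rescaling. The 11601 of 24354 genes whose mean FPKM exceeded 1 were tested on log2(FPKM + 1), adult minus E16.5, with limma 3.58.1 in R 4.3.3, an intensity trend, no covariates and Benjamini-Hochberg adjustment over all genes tested (threshold 0.05). This scale understates changes of low genes. The test and the depth estimate were checked on simulated data. Depth was estimated from 18 to 36 low values per library, 66.7% to 90.5% of which lay within 0.1 of a whole number of reads, so that it is approximate. The tubulins, gene lists and tests were chosen with earlier results of these data known. Named beside the 10 tubulins were all other tubulins, the 3 genes most like the summed tubulins and Tubb4b, and Mir6236. Of each list discussed, up to 3 called genes in each direction were named. The 2 most abundant genes of each list were to be named as well, but only some of them are. Called genes are thus named more fully than genes not called. Other list members that are named were chosen after their values were seen. Ratios of isotype pairs were compared by exact permutation tests. Shared stretches and the coding ends of beta-tubulins (those of alpha-tubulins are not reported here) came from the GENCODE transcripts of GRCm38, and promoters from RefSeq (GRCm38.p6). Alternatives changed the pseudocount, filter, scaling, fit and samples.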

Additional observations from a re-analysis of the deposited data

How the results depend on the processing

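With 18 alternatives to the test, tubulins called higher numbered 0 in every one. Those called lower (4) numbered 2 with a pseudocount of 0.1, 1 with 0.01, 0 to 5 when 1 sample was left out and 1 when both adult replicate 3 and E16.5 replicate 1 were left out, the last chosen after seeing the data. Over all genes, those called higher (246) numbered 119 after rescaling to the same sum, 569 after quantile normalization, 158 without a trend, 27 to 357 with 1 sample left out and 36 with both left out. Those called lower (1024) numbered 661 with median-ratio scaling, 3238 with the same sum, 504 with quantiles, 16 to 1704 with 1 sample left out and 90 with both left out. Fewer samples entered where samples were left out, and the cause of the other shifts was not tested. Tuba1a was called in 16 of the 18 alternatives, Tubb4a in 12, Tubb2a in 11, Tuba4a in 7 and Tubb4b in 6, each with its direction kept. Tuba1b was called in 4 (adjusted p 0.0276 to 0.251) and Tubb5 in 3 (0.0152 to 0.239). Tuba1c turned to -0.46 with the same sum and ranged from -0.040 to 0.56 with 1 sample left out.

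With the replicate number as a block, 2 tubulins were called lower, and over all genes 452 lower and 112 higher. Deviations of same-numbered samples were barely correlated (0.000895, 0.0439 and 0.0150), beside -0.0292 to 0.0135 for samples of different number. With 3 samples per age, such correlations cannot exclude that the numbers mark pairs.

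The mean share of Tuba1a changed by -47.8 percentage points among the 3 alpha members and by -54.2 among all alpha-tubulins of the table. The log2 ratio of Tuba1a to Tuba1b turned to 0.23 with a pseudocount of 0.1 and ranged from -1.71 to 0.23 with 1 sample left out. That of Tubb2a to Tubb2b turned to 0.80 with a pseudocount of 0.1. With 1 sample left out, Tubb3 to Tubb5 ranged from -1.46 to 0.66 and Tubb4b to Tubb5 from -0.29 to 0.40. These ratio alternatives were chosen after seeing the data. The shallow adult libraries limit what can be said of isotypes under about 1 FPKM.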

Other observations

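Markers of other cell types were measured beside the tubulins. The hemoglobin genes Hbb-bs and Hba-a2 were listed at 0 in every adult sample and measured 299, 3.90 and 86.4 FPKM and 20.4, 49.0 and 20.2 FPKM in the E16.5 samples, and both were called lower by limma (adjusted p = 0.0430 and 0.00795). Vim, an intermediate filament gene of progenitors and mesenchyme, measured 141, 144 and 199 FPKM at E16.5 and 21.6, 0.553 and 0 in adult samples and was called lower by limma (adjusted p = 0.0238), as was Pdgfra, a fibroblast receptor gene, with 18.4, 34.9 and 29.7 FPKM against an adult mean of 3.68 ± 1.96 FPKM (SD, n = 3; adjusted p = 0.0296). Of 3 endothelium and 3 macrophage markers tested, none was called by limma, with 1 (lower) and 0 at an unadjusted p under 0.05. At that unadjusted threshold, 3006 of all 11601 genes tested were lower and 620 higher. In summed FPKM, the 8 mesenchyme markers came to 58.6 to 69.4 at E16.5 and 13.3 to 22.0 in adult samples, and the 8 macrophage markers to 0.584 to 8.48 and 0.0695 to 7.35, so that the macrophage sums overlapped between the ages.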
